A study of Homo sapiens with 16 samples.

Results

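The hypoxia response of HIF1A-null cells was set against that of shNT cells: the log2 change from normoxia to hypoxia was taken in each line, and the shNT change was subtracted from the HIF1A-null change. The comparison used every library of these 2 lines, 8 of the 16 in the series. All 4 groups came from HCT116, an established human colorectal carcinoma line, and consisted of HIF1A-null cells after 24 h at 1% oxygen (hypoxia), HIF1A-null cells at 21% oxygen (normoxia), shNT cells in hypoxia and shNT cells in normoxia, with 2 libraries of poly(A) RNA each. HIF1A-null cells carried a genetic deletion of HIF1A, and no shRNA is given for them in the labels, whereas shNT cells stably expressed a non-targeting shRNA. Each line stood for its genotype alone, so the deletion, the shRNA vector and any other difference between the lines cannot be told apart. The remaining 8 libraries, of cells with an shRNA against CDK8 or TIP60, entered the estimate of the spread and a second comparison near the end.

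Cells sense oxygen through hypoxia-inducible factor (HIF), a dimer of an oxygen-labile alpha subunit, encoded mainly by HIF1A or EPAS1, with the stable partner ARNT. In normal oxygen, prolyl hydroxylases of the EGLN family mark the alpha subunit for destruction through VHL. When oxygen is low the subunit accumulates, and the dimer binds DNA at the core letters ACGTG near genes of glycolysis, mitophagy, angiogenesis, pH control and collagen modification.

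The 8 libraries held 30300101 to 39401494 counts, and the test covered 15520 of the 23669 genes in the table, those with enough counts. Levels are given as CPM, counts scaled to a common library size, for libraries A and B of each group, in that order. The letters follow the library numbers, which were not taken to pair libraries. Whether the numbers mark a shared series is not given. Changes are log2 values ± SE, and a gene is called where the adjusted p of edgeR's quasi-likelihood test was under 0.05. A negative response difference means that the gene rose less, or fell more, in hypoxia in HIF1A-null cells than in shNT cells. Both groups of HIF1A-null cells and both of shNT cells were described as independent biological replicates, and both libraries of a group had Pearson's r of 0.987 to 0.992 over genes, which are no independent replicates. The top 10 genes by count made up 6.41 to 6.71% of HIF1A-null hypoxia libraries, 3.91 to 3.97% of HIF1A-null normoxia, 7.06 to 7.35% of shNT hypoxia and 3.50 to 3.51% of shNT normoxia. Summed epithelial markers reached 9229 to 12335 CPM in HIF1A-null hypoxia, 6523 to 7176 CPM in HIF1A-null normoxia, 8435 to 10905 CPM in shNT hypoxia and 4572 to 4587 CPM in shNT normoxia. In bulk RNA, a smaller share of cells of a type and less RNA per cell cannot be told apart.

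The response differed for 2553 genes, or 16.4% of those tested: 1169 were higher in HIF1A-null cells (7.53%) and 1384 were lower (8.92%). The median difference over all genes tested was -0.02. Each line on its own responded widely, with 5893 genes called between hypoxia and normoxia in HIF1A-null cells (38.0%, of which 18.9 points rose and 19.1 fell) and 6311 in shNT cells (40.7%, of which 20.7 points rose and 20.0 fell). Against a minimum change of 1.5-fold, 580 genes passed (3.74%), 191 higher (1.23%) and 389 lower (2.51%). Genes of the canonical HIF programme lay mainly on the lower side, while genes of cholesterol synthesis, the ATF4 pathway, heat shock and DNA replication lay on the higher side. The number of calls depended on single libraries: 1179 genes were called without library A of shNT normoxia, 1524 without library B of HIF1A-null hypoxia and 1640 without library B of HIF1A-null normoxia. A fit of the 8 libraries alone called 1030 genes (424 higher and 606 lower), and with the series of library numbers as a replicate block 4187 were called, 2129 higher and 2058 lower, so that the higher calls were then the more numerous.

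**Figure D1:**
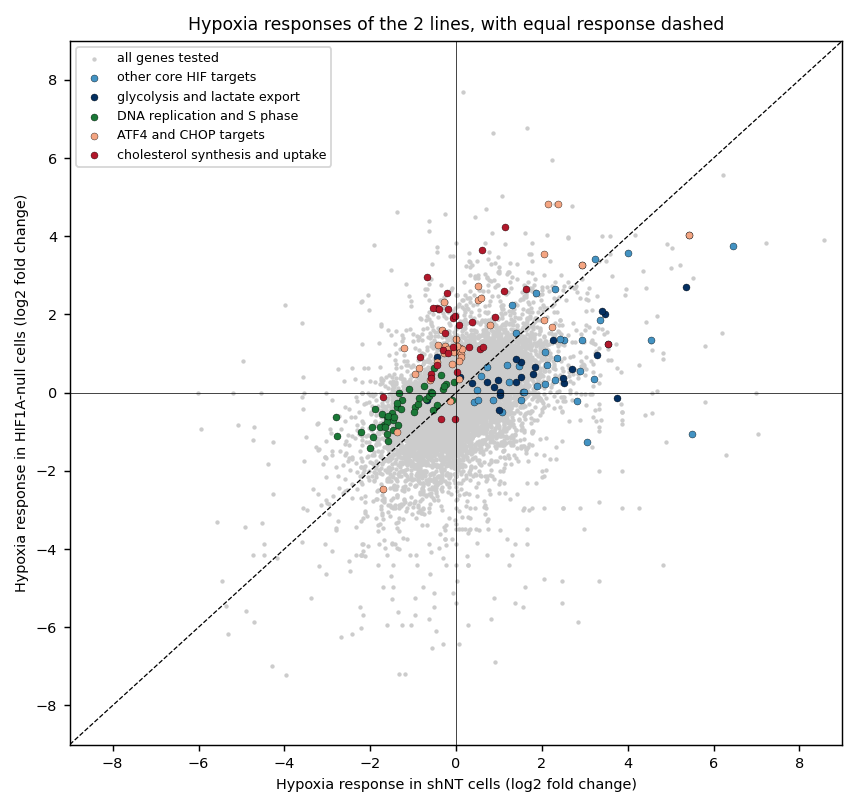
Hypoxia response of each tested gene, as log2 fold change of hypoxia over normoxia, in HIF1A-null cells (vertical axis) and in shNT cells (horizontal axis), with members of 5 gene lists coloured and equal response drawn as a dashed line. Glycolysis genes and other core HIF targets lie mostly below the line, where the median difference is -1.10 and -1.39, and cholesterol, ATF4 and DNA replication genes lie mostly above it, at 1.44, 1.13 and 0.80.

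HIF1A lies at chr14:62162231-62214977 (GRCh37, GENCODE annotation of 15 exons). Its level was 40.1 and 57.6 CPM in HIF1A-null hypoxia, 13.0 and 14.1 CPM in HIF1A-null normoxia, 61.2 and 70.5 CPM in shNT hypoxia, and 107 and 108 CPM in shNT normoxia. Reads were therefore counted at the gene in the deleted line, and they were fewer than in shNT libraries in both conditions, by a log2 difference of -2.99 in normoxia (adjusted p = 4.19e-09) and -0.43 in hypoxia (adjusted p = 0.0283). Which exons the deletion removed is not given in the sources used here, and a count over the whole gene does not show whether intact mRNA was made. The response difference was 2.56 ± 0.21 (adjusted p = 2.74e-06), since HIF1A counts rose in hypoxia in HIF1A-null cells (1.85 ± 0.15) and fell in shNT cells (-0.71 ± 0.15). HIF1A-AS2, a transcript that overlaps HIF1A on the opposite strand and was named after its values were seen, had 14 counts over both libraries of HIF1A-null hypoxia and 1 in HIF1A-null normoxia, against 83 in shNT hypoxia and 0 in shNT normoxia. The strand setting of the counting is not given, so reads of the antisense partners cannot be told apart.

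The other subunits moved less. EPAS1, the second main alpha subunit, had 54.3 and 54.2 CPM in HIF1A-null hypoxia and 44.4 and 42.6 CPM in HIF1A-null normoxia, against 182 and 199 CPM in shNT hypoxia and 62.5 and 73.8 CPM in shNT normoxia. Its rise in shNT cells was thus larger, with a difference of -1.16 ± 0.18 (adjusted p = 6.97e-04). ARNT, the constant partner, rose by the same 0.69 ± 0.16 in each line, and its difference was -0.00 ± 0.23 (adjusted p = 0.996, 95% interval -0.49 to 0.48). Of the 5 subunit genes 1 was called higher and 1 lower. Of the 5 genes of oxygen sensing and turnover, EGLN1 and EGLN3 were lower and none was higher. EGLN3, a prolyl hydroxylase that is itself a HIF target, had 4.39 and 2.53 CPM in HIF1A-null hypoxia, 7.77 and 8.69 CPM in HIF1A-null normoxia, 66.3 and 65.0 CPM in shNT hypoxia and 8.22 and 7.74 CPM in shNT normoxia. The lines were level in normoxia and moved in opposite directions in hypoxia, falling by 1.26 in HIF1A-null cells and rising by 3.04 in shNT cells, for a difference of -4.30 ± 0.29 (adjusted p = 5.91e-07). EGLN1, the main prolyl hydroxylase, differed by -1.70 ± 0.18 (adjusted p = 3.75e-05).

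A panel of 12 textbook hypoxia genes rose in all 12 cases in shNT cells and in 10 cases in HIF1A-null cells. The 10 include CA9, whose rise there rested on 15 counts in hypoxia against 2 in normoxia. The response was lower in HIF1A-null cells for 9 of the 12 and higher for none, with a median difference of -1.89 beside -0.02 over all genes. The median response of the panel was 1.76 in HIF1A-null cells and 3.40 in shNT cells. These 9 calls also held with each of the 8 libraries left out. Promoters from 250 bases before to 50 bases after the start of the gene (RefSeq, GRCh38.p14) were in the reference table for 10 of the 12. The core ACGTG, searched on both strands, occurred in 6 of these 10 (60%), in 8 of 22 glycolysis promoters (36.4%) and in 21.6% of 27305 promoters in all. It overlaps the E-box CACGTG, which 7.43% of all promoters held. The 6 with a match were CA9, which was not called, and LDHA, ANKRD37, P4HA1, BNIP3 and ANGPTL4, which were called lower. The 4 without a match were ADM, which was not called, and SLC2A1, KDM3A and PDK1, which were called lower. To show the letters and their absence, promoters of BNIP3, P4HA1, LDHA and ADM are printed 5′ to 3′ with each ACGTG or its reverse complement CACGT in capitals (BNIP3 chr10:131981874-131982173, minus strand; P4HA1 chr10:73096817-73097116, minus strand; LDHA chr11:18394313-18394612, plus strand; ADM chr11:10304823-10305122, plus strand).
BNIP3: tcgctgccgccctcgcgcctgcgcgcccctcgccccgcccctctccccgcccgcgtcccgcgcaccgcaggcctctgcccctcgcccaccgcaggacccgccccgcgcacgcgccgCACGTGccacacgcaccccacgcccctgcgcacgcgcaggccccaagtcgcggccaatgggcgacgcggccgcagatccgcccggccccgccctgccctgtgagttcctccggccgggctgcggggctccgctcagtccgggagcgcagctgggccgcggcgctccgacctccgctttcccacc
P4HA1: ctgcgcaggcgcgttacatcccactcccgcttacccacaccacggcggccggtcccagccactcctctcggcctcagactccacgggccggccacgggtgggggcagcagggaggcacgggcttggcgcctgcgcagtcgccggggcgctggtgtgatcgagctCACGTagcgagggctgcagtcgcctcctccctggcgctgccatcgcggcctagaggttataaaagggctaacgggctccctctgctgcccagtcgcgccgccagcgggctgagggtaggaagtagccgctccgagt
LDHA: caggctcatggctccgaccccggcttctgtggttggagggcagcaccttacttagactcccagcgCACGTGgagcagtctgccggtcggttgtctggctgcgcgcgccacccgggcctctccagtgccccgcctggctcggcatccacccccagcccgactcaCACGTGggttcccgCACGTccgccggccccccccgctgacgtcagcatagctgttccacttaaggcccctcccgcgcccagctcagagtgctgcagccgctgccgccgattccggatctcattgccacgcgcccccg
ADM: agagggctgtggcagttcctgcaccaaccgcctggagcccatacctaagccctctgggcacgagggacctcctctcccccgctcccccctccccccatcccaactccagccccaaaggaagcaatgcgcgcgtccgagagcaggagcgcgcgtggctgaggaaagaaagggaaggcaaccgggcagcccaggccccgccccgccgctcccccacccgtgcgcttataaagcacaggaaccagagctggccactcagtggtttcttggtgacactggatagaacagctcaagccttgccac
A match says only that the letters are present in this window.

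BNIP3 (chr10:133781188-133795471, GRCh37), a mitophagy receptor of the outer mitochondrial membrane, responded in shNT cells alone by the test. It had 29.0 and 32.7 CPM in HIF1A-null hypoxia, 30.2 and 32.5 CPM in HIF1A-null normoxia, 211 and 271 CPM in shNT hypoxia and 31.7 and 24.2 CPM in shNT normoxia. The shNT hypoxia libraries stood alone above the other 6, which overlapped. The difference was -3.14 ± 0.23 (adjusted p = 1.31e-06), with a response of -0.02 ± 0.16 in HIF1A-null cells and 3.11 ± 0.17 in shNT cells.

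ANGPTL4, a secreted inhibitor of lipoprotein lipase, kept a part of its rise. Its level was 435 and 299.9 CPM in HIF1A-null hypoxia and 27.9 and 24.2 CPM in HIF1A-null normoxia, against 1509.6 and 1031 CPM in shNT hypoxia and 8.56 and 8.41 CPM in shNT normoxia. The normoxic level was higher and the hypoxic level lower in HIF1A-null cells, so both ends contributed to the difference of -3.41 ± 0.28 (adjusted p = 2.74e-06). ANKRD37, an ankyrin repeat protein, had 9.26 and 11.2 CPM in HIF1A-null hypoxia, 0.858 and 0.651 CPM in HIF1A-null normoxia, 181 and 278 CPM in shNT hypoxia and 3.26 and 2.08 CPM in shNT normoxia. It rose in both lines, by 3.75 ± 0.33 in HIF1A-null cells and 6.44 ± 0.30 in shNT cells.

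SLC2A1, the glucose transporter GLUT1, differed mainly through its normoxic level. It had 831 and 561 CPM in HIF1A-null hypoxia, 599.9 and 577 CPM in HIF1A-null normoxia, 1035 and 845 CPM in shNT hypoxia and 165 and 162 CPM in shNT normoxia. The hypoxic libraries of the lines lay close together (log2 difference -0.43, adjusted p = 0.0517), whereas normoxic HIF1A-null libraries were far above normoxic shNT libraries (1.85, adjusted p = 2.50e-06). The response difference was -2.28 ± 0.24 (adjusted p = 3.34e-05).

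P4HA1, a collagen prolyl hydroxylase subunit, had 71.4 and 90.8 CPM in HIF1A-null hypoxia, 23.1 and 32.3 CPM in HIF1A-null normoxia, 299 and 366 CPM in shNT hypoxia and 29.7 and 28.6 CPM in shNT normoxia (difference -1.96 ± 0.24, adjusted p = 1.02e-04). PDK1, a pyruvate dehydrogenase kinase, had 18.2 and 27.0 CPM in HIF1A-null hypoxia and 8.63 and 10.4 CPM in HIF1A-null normoxia. Its shNT levels were 104 and 136 CPM in hypoxia and 13.1 and 12.4 CPM in normoxia (difference -1.98 ± 0.27, adjusted p = 2.25e-04). For both P4HA1 and PDK1, hypoxic shNT libraries were above hypoxic HIF1A-null libraries without overlap. LDHA, which reduces pyruvate to lactate, had 979.8 and 1059.8 CPM in HIF1A-null hypoxia, 684 and 777 CPM in HIF1A-null normoxia, 2609 and 3003 CPM in shNT hypoxia and 898 and 709 CPM in shNT normoxia. Its rise was smaller in HIF1A-null cells but passed the test in both lines, at 0.48 ± 0.15 in HIF1A-null cells and 1.80 ± 0.15 in shNT cells. KDM3A, a histone H3 lysine demethylase, and NDRG1, a stress-induced growth regulator, differed by -1.64 ± 0.25 and -1.76 ± 0.33 (adjusted p = 6.12e-04 and 0.00263), and both rose in each line.

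The remaining 3 panel genes were not called. VEGFA, the main angiogenic growth factor, had 185 and 205 CPM in HIF1A-null hypoxia and 61.2 and 46.7 CPM in HIF1A-null normoxia, against 289.8 and 283 CPM in shNT hypoxia and 72.6 and 65.1 CPM in shNT normoxia. Its responses were 1.86 ± 0.15 in HIF1A-null cells and 2.06 ± 0.15 in shNT cells, and the 95% interval of their difference ran from -0.63 to 0.23 (adjusted p = 0.545). ADM, the vasodilator adrenomedullin, had 398 and 532 CPM in HIF1A-null hypoxia and 46.1 and 43.96 CPM in HIF1A-null normoxia, against 601 and 760.3 CPM in shNT hypoxia and 68.2 and 52.97 CPM in shNT normoxia. The ADM difference was -0.12 ± 0.25, with an interval of -0.64 to 0.40 (adjusted p = 0.786). Both genes rose in HIF1A-null cells, and their hypoxic levels there differed from those of shNT cells by a log2 value of -0.55 for each (adjusted p = 0.00595 for VEGFA and 0.018 for ADM). CA9, the membrane carbonic anhydrase often used as a hypoxia marker, had 15 counts over both libraries of HIF1A-null hypoxia and 2 in HIF1A-null normoxia, a ratio of 10.3 with a 95% counting interval of 2.40 to 93.2. In shNT cells CA9 reached 56.0 and 44.2 CPM in hypoxia and 2.19 and 1.00 CPM in normoxia. CA9 stayed near its floor in HIF1A-null cells, and the response difference of -1.81 ± 1.55 was undecided at these counts (adjusted p = 0.46).

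**Figure D2:**
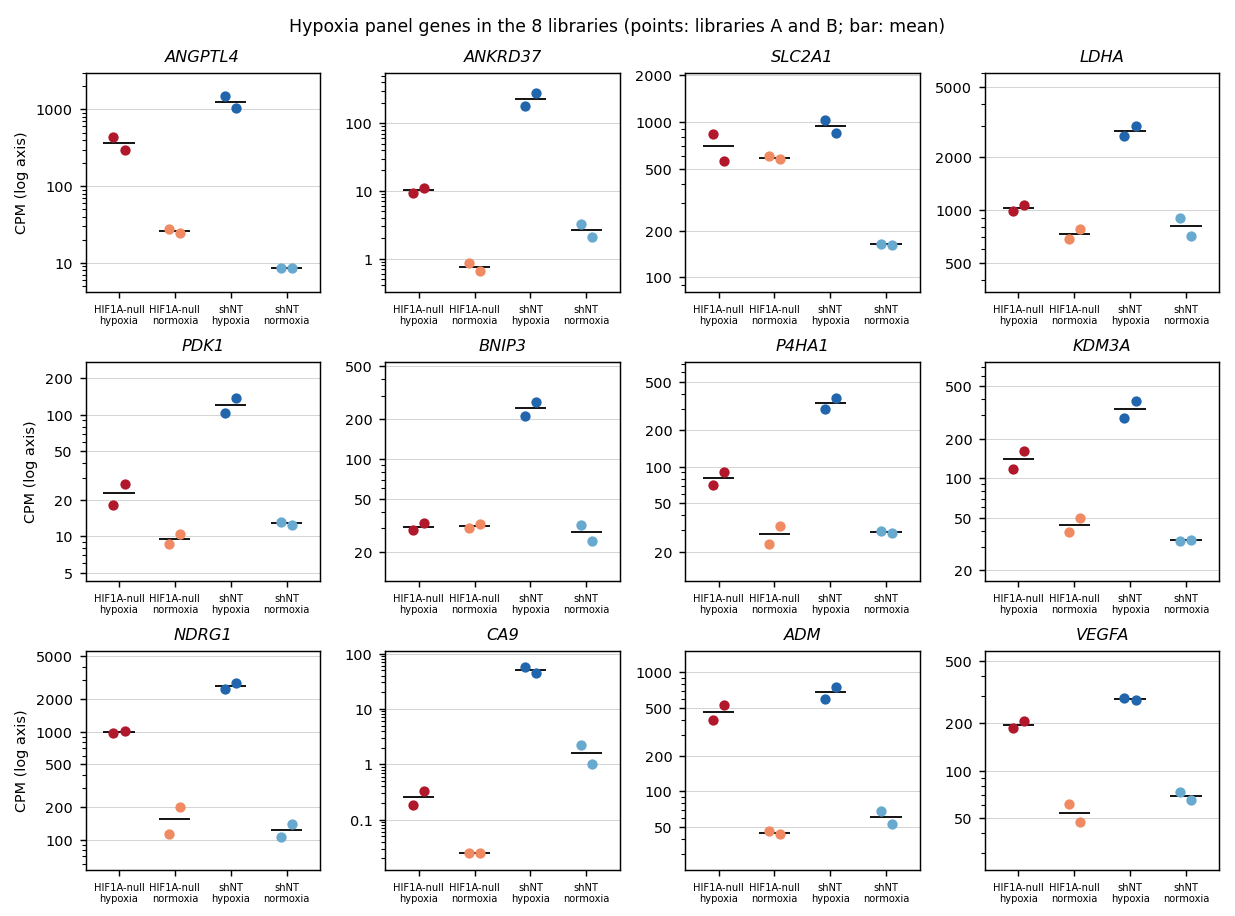
Levels of the 12 hypoxia panel genes in CPM on a log axis, with a point for each of libraries A and B and a bar at their mean, for HIF1A-null hypoxia, HIF1A-null normoxia, shNT hypoxia and shNT normoxia. BNIP3 is raised only in the shNT hypoxia libraries (211 and 271 CPM), SLC2A1 is already high in HIF1A-null normoxia (599.9 and 577 CPM), and ADM and VEGFA rise in both lines.

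Glycolysis lay mostly on the lower side. Of 25 genes of glycolysis and lactate export, 17 had a lower response in HIF1A-null cells and 1 a higher one, with a median difference of -1.10. In shNT cells 21 of the 25 rose, and in HIF1A-null cells 13 did. The lower genes covered most steps. Among them were HK1 and HK2 (-1.10 and -1.46), GPI (-2.09), ALDOA and ALDOC (-0.89 and -1.32), GAPDH (-1.19), PGK1 (-2.12), ENO1 (-1.14) and the lactate exporter SLC16A3 (-1.45). The phosphofructokinase genes PFKL, PFKM and PFKP (-0.65, 0.31 and -0.73) and the pyruvate kinase gene PKM (-0.54) were not called. PFKFB4 (chr3:48555117-48599448, GRCh37), which sets the level of a fructose bisphosphate that activates phosphofructokinase, had 22.8 and 20.1 CPM in HIF1A-null hypoxia, 24.9 and 22.6 CPM in HIF1A-null normoxia, 363 and 324 CPM in shNT hypoxia and 27.5 and 24.0 CPM in shNT normoxia. The 6 libraries outside shNT hypoxia lay within a narrow band, and the difference of -3.88 ± 0.19 had the smallest adjusted p of the list (1.89e-08). ENO2, a neuronal enolase isoform, had 178 and 187 CPM in HIF1A-null hypoxia, 92.0 and 95.5 CPM in HIF1A-null normoxia, 803 and 826 CPM in shNT hypoxia and 86.7 and 80.7 CPM in shNT normoxia (-2.32 ± 0.19, adjusted p = 2.40e-06). ENO2 still rose in HIF1A-null cells, by 0.96 ± 0.13. PFKFB2, the cardiac isoform of the same enzyme family as PFKFB4, was the single higher gene, at 39.1 and 44.2 CPM in HIF1A-null hypoxia, 21.6 and 22.7 CPM in HIF1A-null normoxia, 18.4 and 16.7 CPM in shNT hypoxia and 25.6 and 22.04 CPM in shNT normoxia (1.35 ± 0.19, adjusted p = 3.36e-04). SLC2A3, a second glucose transporter, differed by -2.66 ± 0.31, but its count is uncertain because SLC2A14 is nearly identical to it. PFKFB2 and SLC2A3 were named after their values were seen.

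Genes of pH control were divided. Of 7 tested, CA12 and SLC16A3 were lower and CA2 and SLC4A7 higher. CA12, a membrane carbonic anhydrase, had 2.01 and 2.24 CPM in HIF1A-null hypoxia, 3.18 and 3.61 CPM in HIF1A-null normoxia, 11.1 and 10.6 CPM in shNT hypoxia and 6.25 and 7.74 CPM in shNT normoxia (-1.30 ± 0.23, adjusted p = 0.00176). SLC4A7, a sodium bicarbonate cotransporter, rose by 1.29 ± 0.17 in HIF1A-null cells, beside 0.12 ± 0.17 in shNT cells.

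Among 13 genes of the mitochondrial switch and mitophagy, 6 were lower and 2 higher, with a median of -0.77. FAM162A, a mitochondrial protein linked to hypoxic cell death, had 46.4 and 47.9 CPM in HIF1A-null hypoxia, 43.2 and 49.2 CPM in HIF1A-null normoxia, 269.8 and 284 CPM in shNT hypoxia and 54.7 and 49.8 CPM in shNT normoxia (-2.37 ± 0.19, adjusted p = 2.40e-06). As with BNIP3, the HIF1A-null response was near 0 (0.03 ± 0.13). BNIP3L, the mitophagy receptor related to BNIP3, had 63.7 and 64.0 CPM in HIF1A-null hypoxia, 30.2 and 46.2 CPM in HIF1A-null normoxia, 294 and 332 CPM in shNT hypoxia and 38.3 and 42.4 CPM in shNT normoxia, and rose in both lines (difference -2.21 ± 0.25, adjusted p = 5.10e-05). The 2 higher genes were ISCU, an iron-sulfur scaffold (1.07, adjusted p = 0.00168), and HIGD1A, a respiratory chain factor (0.80, adjusted p = 0.0333), and only 1 gene of the list was higher without library A of shNT normoxia, library A of HIF1A-null normoxia, library A of shNT hypoxia or library B of HIF1A-null hypoxia.

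Of 39 other core HIF targets tested, 25 had a lower response and 1, the kinase gene PIM1, a higher one (0.93, adjusted p = 0.0181), with a median of -1.39. PIM1 was still called without library A of HIF1A-null normoxia, library B of shNT hypoxia or library B of HIF1A-null hypoxia, and was lost without any of the others. In shNT cells 38 of these 39 rose, and in HIF1A-null cells 22 rose and 2 fell. CXCR4, a chemokine receptor, had 0.149 and 0.357 CPM in HIF1A-null hypoxia, 0.48 and 0.601 CPM in HIF1A-null normoxia, 9.73 and 20.7 CPM in shNT hypoxia and 0.246 and 0.406 CPM in shNT normoxia. The hypoxic shNT libraries stood far above the other 6, and the difference was -6.55 ± 0.66 (adjusted p = 2.18e-05). CXCR4 had only 4 and 11 counts in HIF1A-null hypoxia, 19 and 24 in HIF1A-null normoxia and 8 and 17 in shNT normoxia. The size of its difference is therefore uncertain, and its own HIF1A-null response was not called (-1.05 ± 0.54, adjusted p = 0.137). TMEM45A, a transmembrane protein, had 3.01 and 3.34 CPM in HIF1A-null hypoxia, 3.91 and 3.48 CPM in HIF1A-null normoxia, 40.8 and 48.0 CPM in shNT hypoxia and 6.65 and 5.90 CPM in shNT normoxia (-3.04 ± 0.22, adjusted p = 1.04e-06). FUT11, a fucosyltransferase, and PPFIA4, a liprin scaffold protein, differed by -2.86 ± 0.24 and -2.35 ± 0.21 (adjusted p = 2.74e-06 and 5.60e-06). FUT11 did not pass the test of its own response in HIF1A-null cells (0.35 ± 0.17, adjusted p = 0.109), whereas PPFIA4 rose there by 0.54 ± 0.15.

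Of 16 angiogenic and vasoactive genes, 5 were lower (ANGPTL4, THBS1, PDGFA, EFNA3 and PDGFB) and 1 was higher (HMOX1, called with library A of HIF1A-null normoxia or of shNT hypoxia left out and lost without any other library), with a median of -0.45. PDGFA, a platelet-derived growth factor chain, had 181 and 168.97 CPM in HIF1A-null hypoxia, 31.8 and 30.3 CPM in HIF1A-null normoxia, 291 and 423 CPM in shNT hypoxia and 22.7 and 23.5 CPM in shNT normoxia, so it rose in both lines (difference -1.45 ± 0.30, adjusted p = 0.00461). THBS1, an antiangiogenic matrix protein, rose in shNT cells only by the test (0.11 ± 0.22 in HIF1A-null cells and 1.82 ± 0.20 in shNT cells), and its difference of -1.71 ± 0.30 passed (adjusted p = 0.00136). EFNA3, an ephrin ligand, differed by -1.14 ± 0.20 (adjusted p = 0.00171).

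Among 14 genes of collagen modification, 4 were called lower, none higher and 10 not at all, with a median of -0.32. Over all genes tested, 8.92% were called lower. PLOD2, a lysyl hydroxylase, had 13.6 and 20.1 CPM in HIF1A-null hypoxia, 16.6 and 21.6 CPM in HIF1A-null normoxia, 152 and 187 CPM in shNT hypoxia and 24.8 and 27.1 CPM in shNT normoxia, with overlapping conditions in HIF1A-null cells (-2.89 ± 0.25, adjusted p = 5.14e-06). PLOD1 and P4HA2, further hydroxylases, differed by -1.49 ± 0.23 and -1.23 ± 0.21 (adjusted p = 6.47e-04 and 0.00115). Glycogen metabolism had 5 of 14 genes lower and 2 higher (PYGB and GYG1), with a median of -0.30, and neither of the higher genes was called without library A of shNT normoxia, library B of HIF1A-null normoxia or library B of shNT hypoxia. GYS1, muscle glycogen synthase, had 86.0 and 81.3 CPM in HIF1A-null hypoxia, 140.2 and 122 CPM in HIF1A-null normoxia, 268 and 226 CPM in shNT hypoxia and 110.3 and 110.2 CPM in shNT normoxia, so it fell in HIF1A-null cells and rose in shNT cells (-1.81 ± 0.22, adjusted p = 7.26e-05). GBE1, the branching enzyme, and PPP1R3B, a glycogen-targeting phosphatase subunit, differed by -1.98 ± 0.18 and -2.33 ± 0.28 (adjusted p = 6.17e-06 and 6.68e-05).

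JmjC demethylases and related hydroxylases, which use oxygen as a substrate, had 8 of 20 members lower and 2 higher (KDM6A and MINA), with a median of -0.21, and 1 was higher without library A of shNT hypoxia or library B of HIF1A-null hypoxia. KDM4B had 104 and 78.8 CPM in HIF1A-null hypoxia, 53.2 and 57.1 CPM in HIF1A-null normoxia, 259.8 and 206 CPM in shNT hypoxia and 47.2 and 48.0 CPM in shNT normoxia (-1.56 ± 0.22, adjusted p = 2.72e-04). C14orf169, a ribosomal oxygenase gene also known as NO66, fell in both lines and more so in HIF1A-null cells, with 0.186 and 0.292 CPM in HIF1A-null hypoxia, 5.53 and 6.11 CPM in HIF1A-null normoxia, 1.48 and 1.92 CPM in shNT hypoxia and 9.98 and 8.93 CPM in shNT normoxia (-2.10 ± 0.38, adjusted p = 0.00176). With a library left out, 5 to 7 of the list were called lower, and 5 without library B of shNT hypoxia.

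The 10 lowest differences among genes with at least 5 CPM in a group and with no overlap of library responses ran from -6.60 to -3.24, and included CXCR4, EGLN3, PFKFB4 and ANGPTL4. Over all genes tested, 20.7% had no overlap on that side. GPR110, an adhesion G protein-coupled receptor, had 0 counts in HIF1A-null hypoxia and 16 in HIF1A-null normoxia, so it was at least 3.87-fold lower in hypoxia against a floor of 3 counts over the group. In shNT cells it had 43.9 and 43.6 CPM in hypoxia and 24.7 and 25.03 CPM in normoxia, far above HIF1A-null cells in both conditions. MYBPH, a myosin-binding protein, was the reverse case, with 2.83 and 2.34 CPM in HIF1A-null hypoxia, 48.0 and 49.2 CPM in HIF1A-null normoxia, 0.207 and 0.0331 CPM in shNT hypoxia and 0.123 and 0.167 CPM in shNT normoxia. It fell in HIF1A-null cells, whereas shNT cells held only trace counts in both conditions, and its difference of -3.92 ± 0.81 (adjusted p = 0.00455) was not called without library A of shNT hypoxia (adjusted p = 0.477). C4orf47 (-4.97 ± 0.57), C10orf10 (-3.43 ± 0.52) and the orphan receptor gene GPR146 (-3.36 ± 0.39) all had their highest levels in shNT hypoxia. IGFBP3, an insulin-like growth factor binding protein, had 0.521 and 0.13 CPM in HIF1A-null hypoxia and 0.101 and 0.15 CPM in HIF1A-null normoxia, against 42.7 and 27.4 CPM in shNT hypoxia and 1.39 and 1.62 CPM in shNT normoxia (-3.24 ± 0.91, adjusted p = 0.0248). The IGFBP3 value rested on 14 and 4 counts in HIF1A-null hypoxia and 4 and 6 in HIF1A-null normoxia. It was not called without library A of shNT normoxia (-3.13, adjusted p = 0.0561), library B of HIF1A-null normoxia (-2.93, adjusted p = 0.193) or library B of HIF1A-null hypoxia (-2.51, adjusted p = 0.0678), and was -4.48 without library A of HIF1A-null hypoxia.

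**Figure D3:**
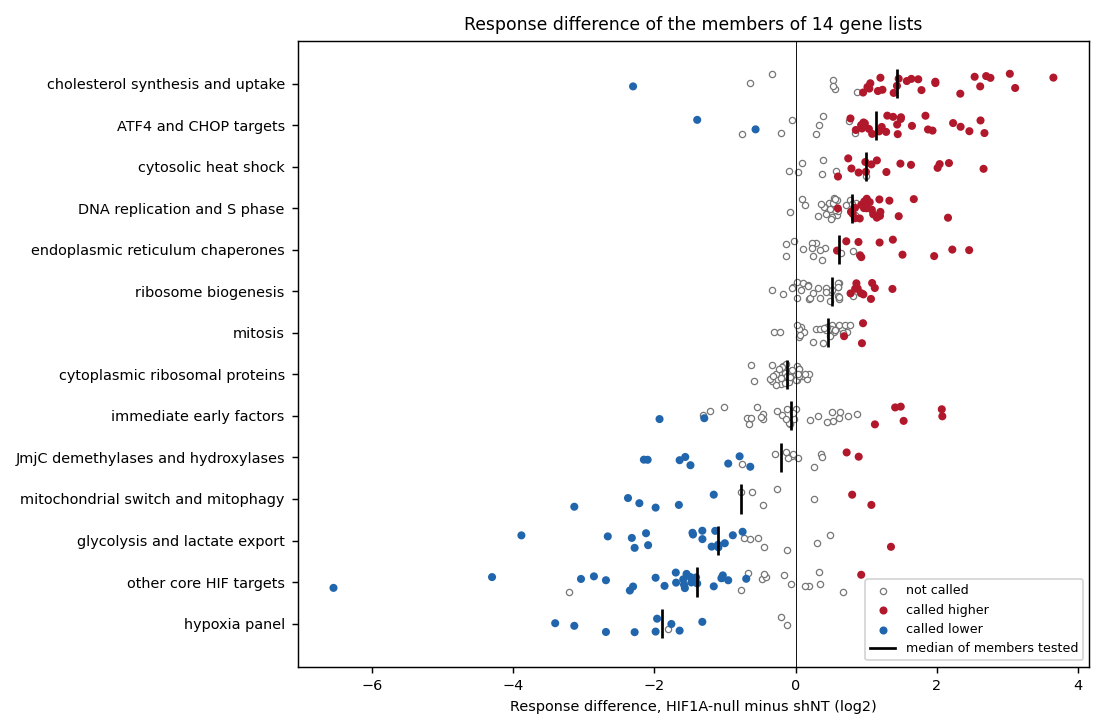
Response difference, HIF1A-null minus shNT, on the log2 scale for each tested member of 14 gene lists, with called members filled (red higher, blue lower), others open and the median of each list as a bar. Cholesterol, ATF4, heat shock and DNA replication lists lie on the higher side, with medians of 1.44, 1.13, 0.99 and 0.80, and the HIF target lists on the lower side, with medians from -1.89 for the panel to -0.77 for the mitochondrial switch.

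Cholesterol synthesis stood out on the higher side. Of 31 genes of cholesterol and fatty acid synthesis and uptake, 24 had a higher response in HIF1A-null cells and 1 a lower one, with a median difference of 1.44. In HIF1A-null cells 26 rose and 2 fell, while in shNT cells 6 rose and 8 fell. HMGCS1 (chr5:43287572-43313614, GRCh37), the synthase at the entry of the mevalonate pathway, had 449 and 648 CPM in HIF1A-null hypoxia, 60.8 and 79.7 CPM in HIF1A-null normoxia, 64.7 and 67.4 CPM in shNT hypoxia and 109.7 and 103 CPM in shNT normoxia. Hypoxic HIF1A-null libraries stood apart from the other 6, and the difference was 3.65 ± 0.25 (adjusted p = 5.91e-07).

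INSIG1, which retains the sterol regulatory machinery in the endoplasmic reticulum, rose in both lines. It had 807 and 1188 CPM in HIF1A-null hypoxia, 58.8 and 46.9 CPM in HIF1A-null normoxia, 162 and 181 CPM in shNT hypoxia and 90.9 and 65.9 CPM in shNT normoxia (3.11 ± 0.29, adjusted p = 7.25e-06). Its paralog INSIG2, also a HIF target, was the one gene of the list with a lower response (-2.30, adjusted p = 2.64e-04). FDFT1, squalene synthase, had 619.7 and 819 CPM in HIF1A-null hypoxia, 158 and 166 CPM in HIF1A-null normoxia, 156 and 142 CPM in shNT hypoxia and 228 and 206 CPM in shNT normoxia (2.70 ± 0.22, adjusted p = 2.74e-06). IDI1, MVD and MSMO1, enzymes of the same route, differed by 2.61 ± 0.21, 2.76 ± 0.33 and 3.03 ± 0.39. The fatty acid synthase gene FASN was also higher (2.54, adjusted p = 0.00228).

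Targets of ATF4 and CHOP, transcription factors of the integrated stress response, were higher for 26 of 36 genes and lower for 2, DDIT4 and GDF15, with a median of 1.13. Without library A of shNT normoxia, library B of HIF1A-null normoxia, library B of shNT hypoxia or either library of HIF1A-null hypoxia, 1 was lower. In HIF1A-null cells 31 of them rose and 1 fell, and in shNT cells 9 rose and 5 fell. DDIT3, which encodes CHOP, had 453 and 618 CPM in HIF1A-null hypoxia, 16.5 and 21.3 CPM in HIF1A-null normoxia, 43.6 and 78.3 CPM in shNT hypoxia and 14.01 and 13.4 CPM in shNT normoxia. It rose in both lines, and more in HIF1A-null cells (2.68 ± 0.40, adjusted p = 4.99e-04). ATF4 itself had 799.9 and 780.4 CPM in HIF1A-null hypoxia, 399 and 319 CPM in HIF1A-null normoxia, 357 and 410.4 CPM in shNT hypoxia and 378 and 338 CPM in shNT normoxia (1.04 ± 0.21, adjusted p = 0.00336). DDIT3, ATF4 and ASNS were named after their values were seen.

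PSAT1, an enzyme of serine synthesis, had 145 and 157 CPM in HIF1A-null hypoxia, 75.4 and 62.5 CPM in HIF1A-null normoxia, 46.6 and 44.4 CPM in shNT hypoxia and 121 and 89.0 CPM in shNT normoxia, so it rose in HIF1A-null cells and fell in shNT cells (2.34 ± 0.22, adjusted p = 7.26e-06). SESN2, a stress-induced inhibitor of mTOR signalling, had 132 and 128 CPM in HIF1A-null hypoxia, 25.9 and 24.1 CPM in HIF1A-null normoxia, 26.8 and 24.5 CPM in shNT hypoxia and 20.0 and 16.2 CPM in shNT normoxia (1.88 ± 0.23, adjusted p = 9.65e-05). TRIB3, a pseudokinase induced by CHOP, and ASNS, asparagine synthetase, differed by 1.94 ± 0.24 and 2.62 ± 0.35 (adjusted p = 1.01e-04 and 1.89e-04). Cytosolic tRNA synthetase genes were among the higher genes, from SARS (0.78) to MARS (1.49). TSC22D3, a glucocorticoid-induced leucine zipper protein, rose in both lines (2.46 ± 0.32 higher in HIF1A-null cells, adjusted p = 1.84e-04).

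Endoplasmic reticulum chaperones were higher for 11 of 24 genes and lower for none, with a median of 0.61. HSPA5, the chaperone BiP, had 4930.2 and 8009.5 CPM in HIF1A-null hypoxia, 692 and 706 CPM in HIF1A-null normoxia, 1086 and 1385 CPM in shNT hypoxia and 639 and 604 CPM in shNT normoxia (2.22 ± 0.29, adjusted p = 1.72e-04). HERPUD1, a factor of protein degradation at that membrane, had 519 and 889 CPM in HIF1A-null hypoxia, 44.4 and 39.2 CPM in HIF1A-null normoxia, 85.6 and 117 CPM in shNT hypoxia and 35.5 and 30.9 CPM in shNT normoxia (2.46 ± 0.32, adjusted p = 1.50e-04). Both rose in each line and more so in HIF1A-null cells. DNAJB11, a BiP cochaperone, rose by 0.47 ± 0.15 in HIF1A-null cells and fell by 0.90 in shNT cells. Fewer were called with some libraries left out, at 6 without library A of shNT normoxia, 6 without library B of HIF1A-null hypoxia and 7 without library A or B of HIF1A-null normoxia or library A of shNT hypoxia. By library totals alone 7 were called.

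**Figure D4:**
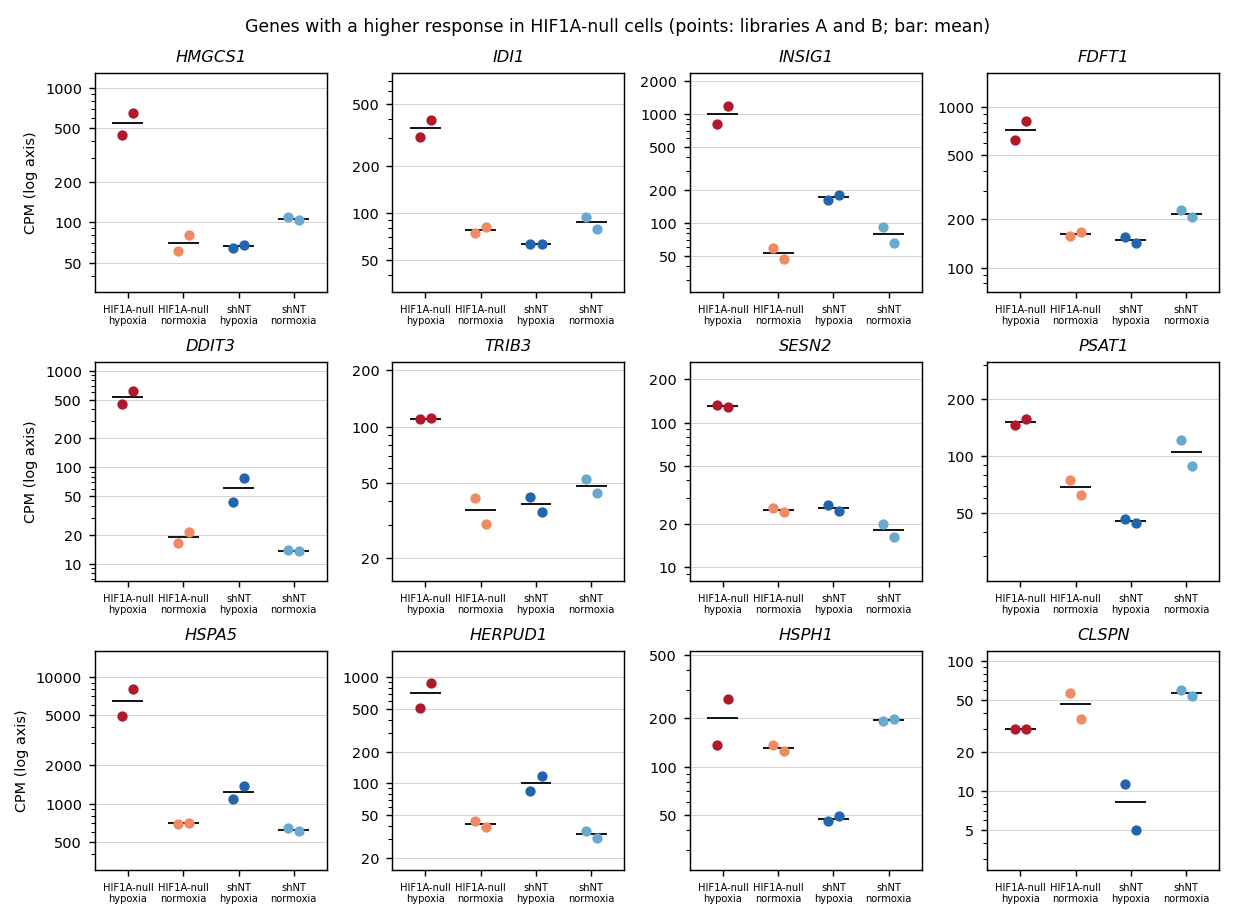
Levels of 12 genes with a higher response in HIF1A-null cells, in CPM on a log axis, with a point for each of libraries A and B and a bar at their mean. Cholesterol genes (HMGCS1, IDI1, INSIG1, FDFT1) and stress genes (DDIT3, TRIB3, SESN2, PSAT1, HSPA5, HERPUD1) are highest in HIF1A-null hypoxia, whereas HSPH1 and CLSPN are lowest in shNT hypoxia, at 45.5 and 49.4 CPM and at 11.4 and 4.99 CPM.

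In several groups a higher difference went with a fall in shNT cells. Of 22 cytosolic heat shock genes, 15 were higher and none lower, with a median of 0.99, and 14 fell in shNT cells against 1 in HIF1A-null cells. HSPH1, a nucleotide exchange factor of the chaperone cycle, had 137 and 264 CPM in HIF1A-null hypoxia, 136 and 126 CPM in HIF1A-null normoxia, 45.5 and 49.4 CPM in shNT hypoxia and 193 and 199 CPM in shNT normoxia (2.66 ± 0.31, adjusted p = 6.78e-05). HSPA8, the constitutive chaperone HSC70, had 1587 and 2667 CPM in HIF1A-null hypoxia, 1749 and 1474 CPM in HIF1A-null normoxia, 496 and 662 CPM in shNT hypoxia and 1791 and 1819 CPM in shNT normoxia (2.04 ± 0.28, adjusted p = 2.65e-04). HSPA1B differed by 2.17 ± 0.33, though its count is uncertain because HSPA1A is nearly identical. Without library B of HIF1A-null hypoxia, the higher of the pair for both genes, 10 of the list were called.

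DNA replication and S phase genes were higher for 22 of 45 and lower for none, with a median of 0.80. In HIF1A-null cells 20 of the 45 fell, 2 rose and 23 were not called, and in shNT cells 36 fell and 0 rose, with median responses of -0.43 in HIF1A-null cells and -1.36 in shNT cells. CLSPN, the checkpoint adaptor claspin, had 29.8 and 30.1 CPM in HIF1A-null hypoxia, 56.9 and 35.7 CPM in HIF1A-null normoxia, 11.4 and 4.99 CPM in shNT hypoxia and 59.8 and 53.4 CPM in shNT normoxia (2.16 ± 0.38, adjusted p = 0.00164). CCNE2, an S phase cyclin, fell in both lines (-1.11 ± 0.22 in HIF1A-null cells and -2.78 ± 0.24 in shNT cells). RFC4 and RFC3, subunits of the sliding clamp loader, differed by 1.33 ± 0.22 and 1.10 ± 0.22 (adjusted p = 9.54e-04 and 0.0033). The count for this list depended on the libraries: it was 8 without library A of shNT normoxia, 10 without library B of HIF1A-null normoxia, 12 without library B of shNT hypoxia, 36 without library A of HIF1A-null normoxia, and 5 in a fit of the 8 libraries alone. Mitosis genes were higher for 3 of 30 (CDK1, CDC20 and CDC25B), beside 7.53% of all genes tested, with a median of 0.46. Their count was 0 without library A of shNT normoxia, library B of HIF1A-null normoxia or library A of shNT hypoxia, 1 without library B of HIF1A-null hypoxia, 5 without library B of shNT hypoxia and 12 without library A of HIF1A-null normoxia.

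Ribosome biogenesis factors were higher for 10 of 39 and lower for none, with a median of 0.52. Their count was 6 without library A of shNT normoxia and 20 without library A of HIF1A-null normoxia. NIP7, a factor of large subunit assembly, had 63.3 and 60.7 CPM in HIF1A-null hypoxia, 105 and 85.2 CPM in HIF1A-null normoxia, 30.9 and 30.6 CPM in shNT hypoxia and 109 and 96.7 CPM in shNT normoxia, so it fell in both lines, less in HIF1A-null cells (1.12 ± 0.17, adjusted p = 6.43e-04). DDX21, a nucleolar helicase, and UTP15, a component of the small subunit processome, differed by 1.07 ± 0.18 and 1.37 ± 0.26 (adjusted p = 9.95e-04 and 0.00279). Nuclear-encoded genes of oxidative phosphorylation were higher for 7 of 44 and lower for none, with a median of 0.31, and 3 were called without library A of shNT normoxia and 4 without library A of shNT hypoxia or library B of HIF1A-null hypoxia. CYCS, cytochrome c, had 148 and 169.9 CPM in HIF1A-null hypoxia, 166 and 144 CPM in HIF1A-null normoxia, 60.4 and 49.3 CPM in shNT hypoxia and 161 and 137 CPM in shNT normoxia (1.48 ± 0.21, adjusted p = 3.59e-04). Cytoplasmic ribosomal protein genes had 0 of 38 called by edgeR's quasi-likelihood test, with a median of -0.12, while 2 had an unadjusted p under 0.05 and DESeq2 called 1 lower.

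Small RNAs and histone genes supplied several of the 10 highest differences, which ran from 4.16 to 2.76. Of 172 small nucleolar RNA genes tested, 50 were higher and none lower, with a median of 1.54. Of 41 clustered histone genes, 7 were higher and 1 lower, with a median of 1.06. HIST1H2BJ had 2.42 and 17.8 CPM in HIF1A-null hypoxia, 1.01 and 0.526 CPM in HIF1A-null normoxia, 0.276 and 0.463 CPM in shNT hypoxia and 0.40 and 0.597 CPM in shNT normoxia (4.16 ± 1.08, adjusted p = 0.0165). Library B of HIF1A-null hypoxia was far above library A, and without it HIST1H2BJ was not called, 2 histone genes were higher, and 13 small nucleolar RNA genes were higher. The small nucleolar RNA count was 21 without library A of shNT hypoxia, 28 and 32 without libraries A and B of shNT normoxia and 79 without library A of HIF1A-null hypoxia, and the histone count was 4 without library B of HIF1A-null normoxia. Small nucleolar RNAs took 0.0434 and 0.0833% of counts in HIF1A-null hypoxia, 0.025 and 0.0274% in HIF1A-null normoxia, 0.0263 and 0.0392% in shNT hypoxia and 0.0358 and 0.0362% in shNT normoxia. These RNAs mostly lack a poly(A) tail, and since they lie in host genes or have near-identical copies, their counts are uncertain. HIST1H2AC (3.37 ± 0.60), HIST2H2BE (3.26 ± 0.80), SNORD33 (3.41 ± 0.74), SNORD77 (3.33 ± 0.62) and EID3 (3.003 ± 0.84), a single-exon gene, were also among the 10, beside HMGCS1, INSIG1, MSMO1 and MVD. Without library B of HIF1A-null hypoxia the values were 2.13 for HIST1H2AC, 2.55 for SNORD33 and 2.50 for SNORD77, while HIST2H2BE (1.89, adjusted p = 0.0540) and EID3 (1.84, adjusted p = 0.117) were no longer called. HIST2H2BE was also lost without library B of shNT normoxia, and EID3 without library A of shNT normoxia, library B of HIF1A-null normoxia or library B of shNT hypoxia. HIST1H2BJ was lost as well without library B of shNT normoxia, library B of HIF1A-null normoxia or library A of shNT hypoxia. Over all genes tested, 19.2% had library responses above those of shNT cells with no overlap.

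Set against the mean response of shCDK8 and shTIP60 cells in place of shNT cells, the HIF1A-null response differed for 2829 genes (18.2%), 1209 higher (7.79%) and the others lower (10.4%). Both comparisons share the HIF1A-null libraries, so they are given side by side and not as support for each other. The panel had 11 of 12 genes lower there, glycolysis 18 of 25 lower and 1 higher, other core HIF targets 21 of 39 lower and 1 higher, cholesterol genes 21 of 31 higher and 2 lower, ATF4 and CHOP targets 24 of 36 higher and 1 lower, heat shock genes 13 of 22 higher, and DNA replication genes 7 of 45 higher. VEGFA and ADM, which were not called against shNT, were lower against these lines (-0.62 and -0.65, adjusted p = 0.0232 and 0.044). IGFBP3, PDGFA and THBS1, which were called against shNT, were not called here (-0.90, -0.19 and -0.35, adjusted p = 0.491, 0.66 and 0.386). PFKFB4 differed by -3.87 against these lines and -3.88 against shNT, EGLN3 by -4.23 and -4.30, and BNIP3 by -2.74 and -3.14. Other values lay further apart: ANGPTL4 differed by -2.08 against these lines and -3.41 against shNT, ANKRD37 by -1.54 and -2.69, CXCR4 by -4.41 and -6.55, and PPP1R3B by -1.39 and -2.33. These gaps between the comparisons were not tested.

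Summed fibroblast and mesenchymal markers were 111 to 137 CPM in HIF1A-null hypoxia, 74.5 to 102 CPM in HIF1A-null normoxia, 146 to 149 CPM in shNT hypoxia and 78.5 to 85.9 CPM in shNT normoxia, higher in hypoxia in both lines, with LUM at 0 throughout. Summed endothelial markers were 5.00 to 12.01 CPM over the 8 libraries. Summed leukocyte markers were 33.0 to 51.4 CPM in HIF1A-null hypoxia, 14.7 to 17.1 CPM in HIF1A-null normoxia, 41.8 to 42.8 CPM in shNT hypoxia and 9.24 to 10.7 CPM in shNT normoxia, with CD3E, CD3D, MS4A1 and NKG7 at 0 throughout. None of 7 leukocyte and none of 5 endothelial markers tested was called by edgeR's quasi-likelihood test, although 3 leukocyte and 0 endothelial markers had an unadjusted p under 0.05 and DESeq2 called 1 leukocyte marker lower. Of 16 epithelial markers tested, 4 were lower (ELF3, CLDN3, CDH1 and KRT19) and none higher, 2 were lower without library B of shNT normoxia, and 1 was lower without library A of shNT normoxia, library B of HIF1A-null normoxia, library A of shNT hypoxia or library B of HIF1A-null hypoxia. ELF3, an epithelial transcription factor, had 123 and 89.5 CPM in HIF1A-null hypoxia, 58.9 and 70.3 CPM in HIF1A-null normoxia, 830.0 and 720.0 CPM in shNT hypoxia and 87.5 and 110.3 CPM in shNT normoxia (-2.25 ± 0.25, adjusted p = 4.41e-05). Of 11 fibroblast markers tested, SPARC was higher and COL1A1 lower, beside 7.53% higher and 8.92% lower over all genes tested. SPARC was not called without library B of HIF1A-null normoxia, library A of shNT hypoxia or library A of HIF1A-null hypoxia, and COL1A1 was not called without any of these or either library of shNT normoxia.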

How the data were processed

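The deposited table held read counts per gene symbol, whole numbers without scaling, and the series' design text gives them as the authors' gene-level counts. The submitters' processing notes list HTSeq (0.5.4p5) and GSNAP (2013-10-28) on human build hg19, with R (3.0.3) and DESeq (1.14.0). Per the labels' protocols, poly(A) RNA was made into Ion Torrent libraries. The annotation, strand setting and read filters of the counting are not given in the sources used here, so overlapping, antisense and near-identical genes have uncertain counts. Columns named the group and a library number but no replicate number, and the labels do not say what library numbers mark.

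From these counts, low genes were removed with filterByExpr (minimum count 10, minimum total 15), which kept 15520 of 23669 or 65.6%. Libraries were scaled by trimmed mean of M-values (TMM) factors (0.862 to 0.953 for the hypoxic libraries, 1.01 to 1.10 for the normoxic ones). The counts were fitted with edgeR 4.0.16 in R 4.3.3. The quasi-likelihood model had 1 coefficient for each of 8 groups over all 16 libraries (8 residual df and a common BCV, the biological coefficient of variation, of 0.132). P-values were two-sided and adjusted by Benjamini-Hochberg over all genes tested, at 0.05. CPM used TMM factors. A floor of 3 counts was 0.0716 to 0.112 CPM. The exact 95% intervals of counts, like the floors, hold for the error of counting alone, as PCR copies were not marked. On simulated counts of 15407 genes, a known change was given to 67 genes at 1.5-fold, 67 at 2-fold and 66 at 4-fold. The test of this difference found 4.48%, 34.3% and 92.4% of them, and 6 of its 93 calls were false.

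The members of 32 gene lists (662 distinct genes tested) and the genes to name were chosen with earlier results of these data known. The rule named HIF1A, the panel of 12, the 10 highest and 10 lowest called differences at 5 CPM or more in a group with no overlap of library responses, and up to 4 members of each list with the smallest adjusted p. Pseudogenes, antisense and clone names were passed over (RPS16P5, FAM13A-AS1 and LOC100287036), and some genes the rule chose are not reported here. List members given by their difference alone, and those named because they went against their list, were chosen after their values were seen. Coordinates came from GENCODE release 44 lifted to GRCh37 (20269 of 23669 symbols matched), and promoters from RefSeq on GRCh38.p14. Alternatives were DESeq2 1.42.0, relative log expression (RLE) size factors, library totals, 2 other filters, a fit of 8 libraries, a test against 1.5-fold, each library left out, and, added after the data were seen, the series of library numbers as a replicate block.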

Additional observations from a re-analysis of the deposited data

Results flagged for a closer look

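For 15 of the 125 genes looked at singly, hypoxia moved the lines in opposite directions, and each response passed edgeR's quasi-likelihood test in its own line. The difference between the responses was itself tested, though 2 called responses of opposite sign leave that test little to add. Many of the 125 were named for a large difference or a small adjusted p. The share of such genes over all genes tested was not counted, so 15 of 125 is no rate. In 9 of them the gene rose in HIF1A-null cells and fell in shNT cells: HIF1A with a difference of 2.56, HMGCS1 with 3.65, DNAJB11 with 1.38, PSAT1 with 2.34, IDI1 with 2.61, FDFT1 with 2.70, HSPH1 with 2.66, NDUFA9 with 0.66 and PFKFB2 with 1.35. In the other 6 the gene fell in HIF1A-null cells and rose in shNT cells: GPR110 with -6.60, EGLN3 with -4.30, C10orf10 with -3.43, CA12 with -1.30, GYS1 with -1.81 and ICAM1 with -2.16. The NDUFA9 difference was the smallest and was not called in 6 of the 16 alternatives, among them without library A of shNT normoxia, library A of HIF1A-null normoxia, library A of shNT hypoxia or library B of HIF1A-null hypoxia. The fitted value of GPR110 rests on a group at 0 counts and is no measure of its size. The HIF1A-null rise of HSPH1 (0.62) rested on library B of HIF1A-null hypoxia. Library A of that group was level with library A of HIF1A-null normoxia, so the opposite direction of HSPH1 is uncertain.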

How the results depend on the processing

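No alternative reversed a called named gene, and every gene called both in the reported comparison and under an alternative kept its sign. Of 120 named genes called, 84 were called in every one of the 16 alternatives that gave a value. A test against 1.5-fold left 580 genes (191 higher and 389 lower), 118 list members, 1895 genes in the HIF1A-null response, 1962 in the shNT response and 598 against the other lines. A fit of the 8 libraries alone gave 1030 (424 higher and 606 lower). The series of library numbers as a replicate block gave 4187 genes (2129 higher and 2058 lower) and 4469 against the other lines. Deviations within groups correlated at 0.0925 to 0.336 between groups of the same series, and the numbers were not taken to pair libraries. The cause of these shifts was not tested, beyond the higher bar of the 1.5-fold test and the fewer residual degrees of freedom of the smaller fit. The comparison with the other lines has no fit of 8 libraries.

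With single libraries left out, the difference gave 1179 to 2985 genes (506 to 1267 higher and 673 to 1718 lower) and 100 to 117 of the 120 named genes. The HIF1A-null response gave 3937 to 6018, the shNT response 4104 (without library A of shNT normoxia) to 6651, and the difference from the other lines 1202 (without library B of HIF1A-null hypoxia) to 3228. DESeq2 called 3063, RLE factors 2544, library totals 2458 (924 higher and 1534 lower), no filter 3034 and a mean of 5 CPM 2203. Library totals moved the median of all genes to -0.09, and to -0.28 in the HIF1A-null response and -0.20 in the shNT response. With 2 libraries a group, a difference of 1.5-fold was mostly not found on simulated counts, where 93 genes were called. In the data 2553 were called. The adjusted p depends on how many genes change, so the simulated share need not hold for the data.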

Other observations

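Other gene groups were divided, moved little or had calls mainly on the higher side, as with p53, NRF2 and tricarboxylic acid cycle genes. Among all genes tested, 7.53% were called higher and 8.92% lower, the shares to set beside the counts of the lists below. Of 36 immediate early factors, 6 had a higher response in HIF1A-null cells and 2 a lower one, with a median of -0.06, and 4 were lower without library B of shNT normoxia or library A of HIF1A-null normoxia and 5 without library A of HIF1A-null hypoxia. NR4A1, an orphan nuclear receptor, had 419 and 607 CPM in HIF1A-null hypoxia, 52.0 and 50.4 CPM in HIF1A-null normoxia, 56.3 and 55.9 CPM in shNT hypoxia and 23.2 and 23.9 CPM in shNT normoxia (2.07 ± 0.25, adjusted p = 7.53e-05). FOSL2, an AP-1 subunit, and KLF4, a zinc finger factor, were lower (-1.93 ± 0.20 and -1.29 ± 0.22), and both already stood higher in normoxic HIF1A-null cells than in normoxic shNT cells (1.60 and 1.70). DUSP2, a MAP kinase phosphatase, fell by 1.56 in shNT cells, beside -0.03 ± 0.17 in HIF1A-null cells (difference 1.53 ± 0.24, adjusted p = 7.18e-04).

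Of 28 p53 targets, 6 were higher and 1, GDF15, lower, with a median of 0.29. Of this list 0 were lower without library A of shNT normoxia, library B of HIF1A-null normoxia or either library of HIF1A-null hypoxia, against 2 without library B of shNT normoxia or library A of HIF1A-null normoxia. PLK3, a stress-responsive kinase, had 368 and 385 CPM in HIF1A-null hypoxia, 57.2 and 57.7 CPM in HIF1A-null normoxia, 75.7 and 63.9 CPM in shNT hypoxia and 36.6 and 37.9 CPM in shNT normoxia (1.81 ± 0.17, adjusted p = 9.80e-06). Of 22 NRF2 and glutathione genes, 6 were higher and none lower, with a median of 0.34. GCLC, the catalytic subunit of glutathione synthesis, was at 1.07 ± 0.18 (adjusted p = 0.00124). The number of higher genes in this list was 2 without library A of shNT normoxia. It was 3 without library B of HIF1A-null normoxia, library B of shNT hypoxia or library B of HIF1A-null hypoxia. Of 20 genes of the tricarboxylic acid cycle, 6 were higher and 1, PC, lower, with a median of 0.37. In this list 2 were higher without library A of shNT normoxia and 3 without library B of HIF1A-null normoxia, and PC was lost without either of these, library A of shNT hypoxia or library B of HIF1A-null hypoxia. Of 17 autophagy genes, WIPI1 and UVRAG were higher (0.94 ± 0.21 and 0.92 ± 0.22), beside 7.53% of all genes tested. That count was 1 without library A of shNT normoxia, where UVRAG was lost, and 4 without library B of HIF1A-null normoxia.

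Of 12 glucocorticoid-induced genes, 3 were higher and ERRFI1 lower, and 1 was higher without library A of shNT normoxia and 2 were lower without library A of HIF1A-null normoxia. PER1, a circadian repressor, rose in both lines, with 1769.8 and 2451 CPM in HIF1A-null hypoxia, 147 and 121 CPM in HIF1A-null normoxia, 559 and 691 CPM in shNT hypoxia and 107 and 98.7 CPM in shNT normoxia (1.37 ± 0.37, adjusted p = 0.0195). Of 17 NF-kB and inflammatory genes, ICAM1 and RELA were lower and RELB higher, and of 25 interferon-stimulated genes IFIT2 alone was lower. RELB was lost without either library of shNT normoxia, library B of HIF1A-null normoxia, library B of shNT hypoxia or library A of HIF1A-null hypoxia, and 1 NF-kB gene was lower without library A of shNT normoxia or library B of HIF1A-null hypoxia. IFIT2 was lost without library A of shNT normoxia, library A of shNT hypoxia or library B of HIF1A-null hypoxia, and 2 interferon genes were lower without library B of shNT normoxia or either library of HIF1A-null normoxia and 4 without library A of HIF1A-null hypoxia. ICAM1, an adhesion molecule, had 0.632 and 0.942 CPM in HIF1A-null hypoxia, 1.79 and 1.65 CPM in HIF1A-null normoxia, 15.6 and 14.3 CPM in shNT hypoxia and 6.71 and 7.76 CPM in shNT normoxia. Outside the lists, protein-coding genes with a single exon, histone genes aside, had 8 of 271 higher and 40 lower, with a median of -0.29. Those with several exons had 964 of 12465 higher and 1146 lower, with a median of -0.01.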
